A study of Mus musculus with 16 samples.

Results

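The genes examined were those of 4 short noncoding RNAs that act through their folded structure: Rn7sk, Rmrp, Rpph1 and Terc. They were chosen by their Ensembl identifiers, as 4 of the 54446 mouse identifiers counted in each library. The counts come from newly made RNA of mouse embryonic stem cells (C57BL/6 strain, grown with LIF, CHIR99021 and PD0325901), in a Control and a Mettl14 CKO genotype, a conditional knockout of a subunit of the mRNA adenosine methyltransferase. Cells were labelled with 0.5 mM 5-ethynyl uridine (EU), a uridine analogue taken up into RNA as it is made, for 10, 20, 30 or 60 min before harvest, and EU-bearing RNA was then captured. There were 16 libraries, 2 for each genotype at each EU time, and every library of both genotypes was EU-labelled. The labels name neither the Cre driver nor the number of clones behind each genotype. They mention 8 plates and do not say whether replicate libraries come from different cultures, so the spread behind each p-value is that between libraries and may be technical. Total RNA and polyA RNA are both named in the labels, so which fraction was sequenced is not settled. None of these 4 RNAs is made as a standard polyadenylated mRNA.

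Rn7sk encodes 7SK, a nuclear RNA made by RNA polymerase III that holds the elongation kinase P-TEFb in an inactive particle and so helps set how much paused RNA polymerase II is released into genes. Rmrp and Rpph1 encode the RNA subunits of a pair of related ribonucleases, both also RNA polymerase III products: RNase MRP, which cuts precursor ribosomal RNA, and RNase P, which trims the 5′ ends of precursor tRNAs. Terc is the telomerase RNA, made by RNA polymerase II, which carries the template that telomerase copies onto chromosome ends and is present in embryonic stem cells. The comparisons ask whether newly made RNA from these genes differed between Control and CKO cells and how it changed with labelling time.

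Mouse counts per library ranged from 11902184 to 28502750 outside the CKO 30 min group. The CKO 30 min libraries stood apart from the rest, with 5188643 and 5109162 mouse counts but 30583 and 31826 detected identifiers, against at most 26857 in the others. The averaged differences and pooled ratios that include them are also given without them or without all 30 min libraries. Identifiers could not be paired with gene symbols beyond these 4, so the level of Mettl14, stem cell markers, markers of other cell types and the protein partners of these RNAs were not analysed here.

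Rmrp and Rpph1 had no count in any library. Rmrp (ENSMUSG00000088088.1) lies on chromosome 4, at 43492785 to 43493059 in the RefSeq annotation of GRCm38.p6, the assembly that mm10 corresponds to. Rpph1 (ENSMUSG00000092837.1) lies on chromosome 14, at 50807447 to 50807771. Each had 0 of 270697806 mouse counts over the 16 libraries, which allows at most 0.0111 CPM, the count scaled to a common library total (3 counts of all mouse counts, counting error only). In single libraries the same limit was 0.105 CPM in the deepest and 0.587 CPM in the shallowest. The 2 genes were among 11457 identifiers (21.0%) with 0 in all 16 libraries. They were also at 0 in the CKO 30 min libraries, in which 4854 of the 16311 identifiers that no other library detected had a count. Both RNAs are needed by all growing cells, so a count of 0 describes reads assigned to these identifiers in the deposited tables and is no measure of whether the RNAs were made. In RefSeq no other gene overlaps either of them. The nearest gene to Rmrp is Ccdc107, 280 bases away, and to Rpph1 it is Parp2, 125 bases away. The annotation release, the treatment of reads with several matches and the strand setting used for counting are not given in the sources used for this work, and their part in these zeros was not tested. No comparison of genotypes or of labelling times can be made for Rmrp or Rpph1, and the planned ratio of Rmrp to Rpph1 has no value.

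Rn7sk and Terc were counted and passed the filter on low counts, which left 27488 identifiers. Rn7sk (ENSMUSG00000065037.1; chromosome 9, 78175302 to 78175633, 332 bases, nearest gene C920006O11Rik at 280 bases) had 26 to 241 counts per library and 2313 in all. Terc (ENSMUSG00000064796.1; chromosome 3, 96414437 to 96414833, 397 bases, nearest gene a tRNA at 4296 bases) had 0 to 34 counts per library and 164 in all. Per base of RefSeq length, the summed Rn7sk count was 14.7-fold that of Terc in Control (95% exact interval 12 to 18.2, counting error only) and 20.2-fold in CKO (15.7 to 26.4). Without the CKO 30 min libraries it was 32.7-fold in CKO (23.6 to 46.8). Single libraries ranged more widely than those intervals, from 3.83-fold to 44.2-fold in Control and from 2.34-fold to 124-fold in CKO, leaving out the 2 libraries without a Terc count. Near-identical copies of 7SK exist in the mouse genome. How reads with several matches were counted is not given, so the Rn7sk count is uncertain. Their part in it was not tested.

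Rn7sk levels did not move in 1 direction with labelling time, and under TMM scaling Control and CKO took turns as the higher genotype. Levels here are CPM with TMM, a factor fitted so that most genes match between libraries, which makes them shares of the captured RNA rather than amounts. After 10 min of EU the Control libraries held 15.5 and 12.4 CPM of Rn7sk and the CKO libraries 11.8 and 8.37. After 20 min they held 4.69 and 6.94 in Control and 12.9 and 13.8 in CKO. At 20 min CKO was thus the higher genotype, and at 10 min the lower. After 30 min they held 14.6 and 11.2 in Control and 6.88 and 4.16 in CKO, and after 60 min 4.23 and 4.76 in Control and 7.70 and 5.99 in CKO. Control was high at 10 and 30 min and low at 20 and 60 min, while CKO was high at 10 and 20 min and low at 30 and 60 min. The genotypes did not overlap at any of the 4 EU times. The background for this is wide: 38.4%, 41.7%, 70.8% and 45.7% of the 27488 identifiers did not overlap at 10, 20, 30 and 60 min, 10.1% at all 4 times, and 5.62% at all 4 times with both directions present, as for Rn7sk.

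**Figure D1:**
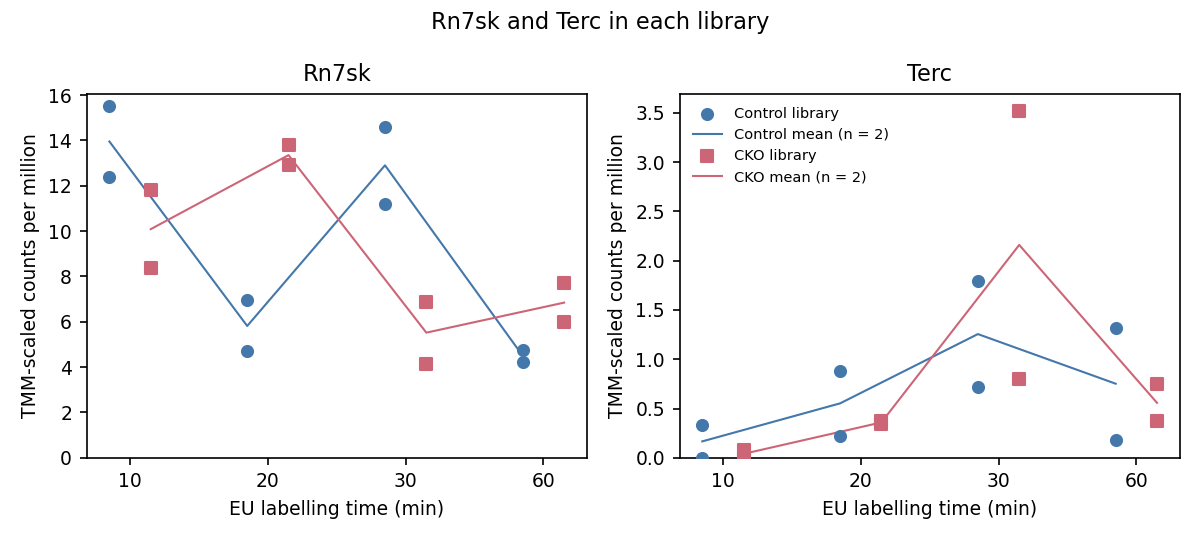
TMM-scaled CPM of Rn7sk (left) and Terc (right) in each of 16 libraries by EU labelling time in min, drawn as evenly spaced categories, with Control as circles, CKO as squares and lines joining the means of 2 libraries. Rn7sk runs between 4.16 and 15.5 and the higher genotype alternates from one EU time to the next, whereas Terc stays at or below 3.52 and its genotypes overlap at every time.

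In order of mean level under TMM scaling, Rn7sk fell into a higher and a lower set of groups. The higher set was Control 10 min at 13.9 ± 2.20 CPM (SD, n = 2), CKO 20 min at 13.4 ± 0.591, Control 30 min at 12.9 ± 2.37 and CKO 10 min at 10.1 ± 2.45. The lower set was CKO 60 min at 6.85 ± 1.21 CPM (SD, n = 2), Control 20 min at 5.82 ± 1.59, CKO 30 min at 5.52 ± 1.92 and Control 60 min at 4.49 ± 0.375. Neighbours in this order overlapped everywhere except between CKO 10 min and CKO 60 min. Each set holds both genotypes. Both 10 min groups are in the higher set and both 60 min groups in the lower. At 20 and 30 min the genotypes fall in different sets. Replicates differed by more than counting error in 5 of the 8 groups (exact binomial test on the counts of both libraries, two-sided, adjusted p of 0.0182 to 0.0430 over 16 pairs of Rn7sk or Terc counts). In the Control 60 min, CKO 20 min and CKO 30 min groups the adjusted p was 0.492, 0.533 and 0.0860.

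The genotype difference of Rn7sk depended on labelling time. The test of genotype by EU time gave an adjusted p of 0.00352 (quasi-likelihood F-test of edgeR with 3 degrees of freedom, Benjamini-Hochberg adjustment over all identifiers), where 22.7% of identifiers were called, that is had an adjusted p below 0.05. It was 0.0549 without the 30 min libraries. Averaged over the EU times the log2 fold change of CKO over Control was 0.05 (SE 0.27; 95% interval −0.48 to 0.59; edgeR adjusted p = 0.923), where 11.5% of identifiers were called. Its sign turned, or it reached 0.00, when any of 7 single libraries was left out, with a lowest value of −0.13 without the first Control 20 min library. Without the 30 min libraries it was 0.43 (SE 0.24, edgeR adjusted p = 0.265). The 8 Control libraries had a median of 9.07 CPM (4.23 to 15.5) and the 8 CKO libraries 8.04 CPM (4.16 to 13.8). These medians ignore EU time and include the CKO 30 min libraries. The summed counts, also with those libraries and without TMM, went the other way, with 8.12 CPM in Control and 9.08 in CKO.

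At 30 min Rn7sk was lower in CKO than in Control, with a log2 fold change of −1.22 (SE 0.38, 0.430-fold, edgeR adjusted p = 0.0118). This was the only single EU time at which it was called, and calls were common there, with 48.5% of identifiers called and 19.1% called lower. Before adjustment the edgeR p was 0.00339 at 30 min and 0.00243 at 20 min, where far fewer identifiers were called. The median log2 fold change of all identifiers at 30 min was 0.61, but 0.02 under a stricter filter on low counts, where Rn7sk was at −0.95 (edgeR adjusted p = 0.0431). The other scalings and filters, DESeq2 and a fit of only the 4 libraries compared put that median between 0.44 and 1.38. Rn7sk itself was at −0.94 both with library totals (edgeR adjusted p = 0.0466) and with DESeq2 (DESeq2 adjusted p = 0.0183). With ERCC scaling it was at −1.23 (edgeR adjusted p = 0.0333). The CKO libraries of this comparison are those that stood apart, with 43 and 26 Rn7sk counts, and whatever sets them apart cannot be told apart from genotype at this time. If the first or the second Control 30 min library was dropped, the log2 fold change was −0.97 (SE 0.50) or −1.35 (SE 0.49). It was −1.61 (SE 0.48) or −0.85 (SE 0.44) if the first or the second CKO 30 min library was dropped. It was −1.16 (SE 0.52, edgeR adjusted p = 0.103) when only the 4 libraries of the comparison were fitted.

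At 20 min the difference under TMM scaling had the same size in the other direction, a log2 fold change of 1.20 (SE 0.36, 2.30-fold). It did not pass the threshold (edgeR adjusted p = 0.15), where 0.96% of identifiers were called. The value stayed near 1.20 in fits with other spreads, while its adjusted p did not. It was 0.0284 in edgeR without the CKO 30 min libraries, 0.0532 without all 30 min libraries, 0.00052 when only the 4 libraries at 20 min were fitted, and 0.00324 with DESeq2. In that order, those fits called 489 of 20647, 384 of 20204, 2353 of 18189 and 827 of 42989 identifiers. The threshold was not passed with library totals (edgeR adjusted p = 0.154), the stricter filter (0.0916) or the replicate block (0.155). Nor was it passed under ERCC scaling, with a log2 fold change of 1.6 (edgeR adjusted p = 0.105) beside a median of 0.36. If the first Control 20 min library was dropped, the log2 fold change was 0.94, and if the second was, 1.51. At 10 min the log2 fold change was −0.46 (SE 0.35, edgeR adjusted p = 0.461), where 11.8% of identifiers were called. Scaling by the spike-in turned its sign, to 0.85 (SE 0.44, edgeR adjusted p = 0.125), where the median of all identifiers was 1.14. At 60 min it was 0.60 (SE 0.36, edgeR adjusted p = 0.686), where 2.63% were called.

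**Figure D2:**
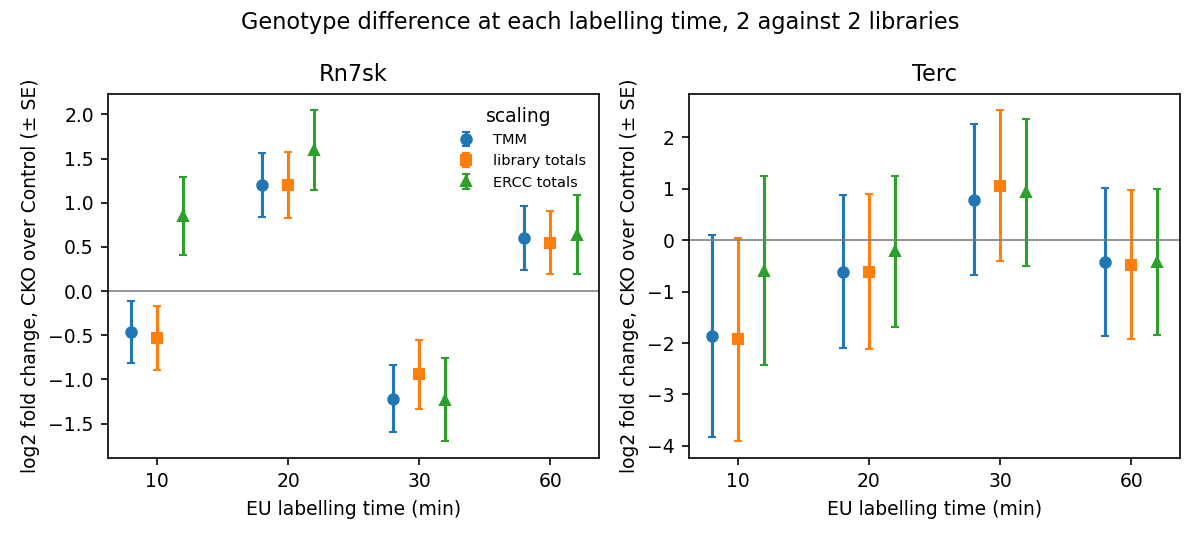
log2 fold change of CKO over Control with its standard error at each EU labelling time in min, for Rn7sk (left) and Terc (right), from edgeR fits with TMM, library total or ERCC scaling. For Rn7sk the TMM values run from −0.46 to 1.20, −1.22 and 0.60, with the sign at 10 min turned under ERCC scaling, and for Terc every bar is wide, with standard errors of 1.44 or more under TMM.

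The share of Rn7sk in captured RNA was lower after 60 min of labelling than after 10 min in Control cells. Between those times the log2 fold change was −1.63 (SE 0.36, 0.323-fold, edgeR adjusted p = 0.00264), where 10.1% of identifiers were called and 3.21% called lower. It was −1.53 (edgeR adjusted p = 0.0805) if the first Control 60 min library was dropped. In CKO the log2 fold change was −0.56 (SE 0.36, edgeR adjusted p = 0.351), where 15.2% were called. Whether these 2 changes differ from each other was not tested. The fall is one of share: scaled by ERCC counts, Rn7sk rose by 1.76 in Control (SE 0.45, edgeR adjusted p = 0.000778) and by 1.55 in CKO (SE 0.45, edgeR adjusted p = 0.00341). On that scale 66.5% of identifiers were called in Control and 53% in CKO. The median identifier rose by 3.25 and 2.01 on the same scale. The 20 and 30 min values above show that the path between 10 and 60 min was not monotonic.

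ERCC RNA is a set of artificial transcripts added here after capture, so that counts set against ERCC counts also vary with the yield of the capture, and a larger number of cells cannot be told apart from a higher yield of labelled RNA from each cell. ERCC-scaled CPM has the ERCC total of a library in place of its mouse total. In ERCC-scaled CPM, Rn7sk stood at 181 and 152 in Control and 329 and 271 in CKO after 10 min, and at 207 and 308 in Control and 761 and 801 in CKO after 20 min. After 30 min it stood at 1150 and 944 in Control and 676 and 241 in CKO, and after 60 min at 536 and 593 in Control and 913 and 844 in CKO. On this scale CKO was the higher genotype at 10, 20 and 60 min and the lower at 30 min. The replicates did not overlap at any time, and those of 52.7%, 48%, 26.9% and 23.4% of the 27488 identifiers stood apart in the same direction as Rn7sk at 10, 20, 30 and 60 min. Averaged over EU times the log2 difference was 0.44 (1.36-fold, exact permutation of genotype within EU time, two-sided, p = 0.255, Benjamini-Hochberg 0.483 over 9485 identifiers), beside a median of 0.30 over those identifiers, 0% of which were called. That count of 0 came with 1892 at an unadjusted p below 0.05. The lowest Benjamini-Hochberg value in this permutation test was 0.0512, and no p below 0.00154 was possible. The 0% is thus a weak background. Without the 30 min libraries the difference was 1.04 (exact permutation p = 0.00926, the smallest that 216 assignments can give, Benjamini-Hochberg 0.0315). In that subset the median of the 9485 identifiers was 0.58, 60.1% had an unadjusted p below 0.05, 29.4% had the smallest p and 37% were called. With 1 library left out at a time, the averaged difference was highest without the second CKO 30 min library, at 0.62. It was lowest without the first, at 0.26.

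The straight-line slope of the ERCC-scaled CPM of Rn7sk on EU minutes was 7.87 per min in Control and 8.96 in CKO, a log2 ratio of 0.19 (exact permutation p = 0.759, Benjamini-Hochberg 0.971 over 9430 identifiers, of which 0% were called and 1913 had an unadjusted p below 0.05). The lowest Benjamini-Hochberg value of the slope permutation test was 0.0794, under the same limit on p. A line describes these levels poorly, since the Control mean went from 1050 at 30 min to 564 at 60 min. The 30 min libraries have no weight in the slope, because 30 min is the mean of the 4 EU times. Its sign rested on single libraries, with −0.41 or −0.27 if either Control 60 min library was dropped (the first or the second, in that order) and −0.08 if the second CKO 10 min library was.

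**Figure D3:**
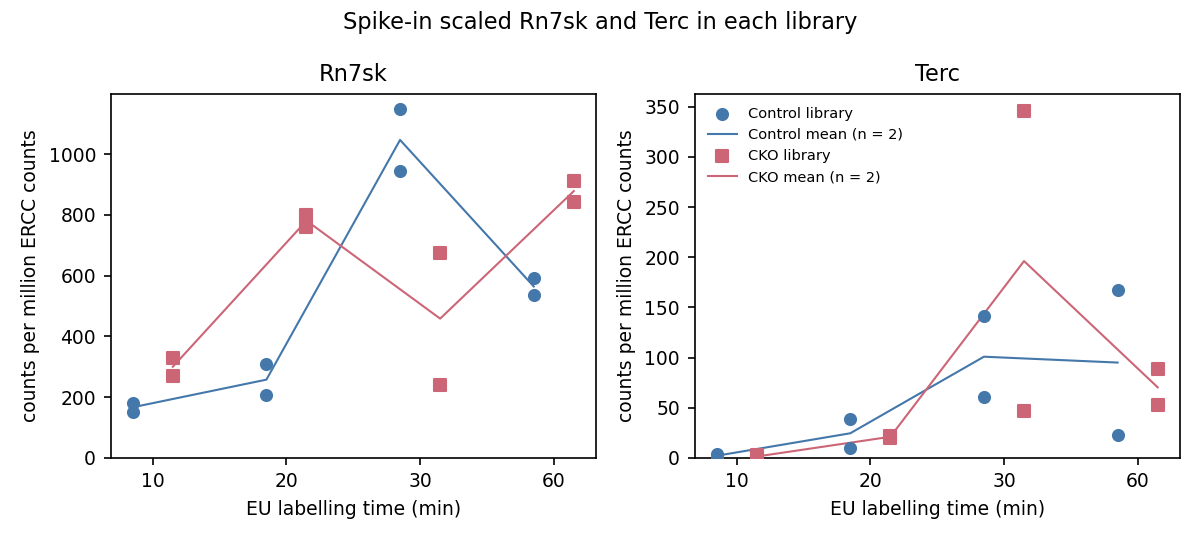
ERCC-scaled CPM of Rn7sk (left) and Terc (right) in each library by EU labelling time in min, drawn as evenly spaced categories, with Control as circles, CKO as squares and lines joining the means of 2 libraries. Rn7sk is higher in CKO at 10, 20 and 60 min and higher in Control at 30 min, and Terc starts at 4.12 or less in all 4 libraries at 10 min.

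Terc was scarce, and no genotype difference passed a test that counts the spread between replicates. Control libraries had 0 and 5 Terc counts at 10 min, 4 and 16 at 20 min, 23 and 13 at 30 min, and 34 and 5 at 60 min. CKO libraries had 0 and 1 at 10 min, 7 and 6 at 20 min, 22 and 5 at 30 min, and 14 and 9 at 60 min. The genotypes overlapped in TMM-scaled CPM at every EU time. In all, Control held 100 Terc counts and CKO 64, a ratio per mouse count of 0.814 (exact interval 0.586 to 1.13, counting error only). At 30 min alone it was 2.26 (1.32 to 3.82), and without the CKO 30 min libraries the ratio over the rest was 0.515 (0.344 to 0.758). It was 0.641 (0.416 to 0.975) without all 30 min libraries. The first CKO 30 min library held 22 of the 64 CKO counts, and without it alone the ratio was 0.559 (0.38 to 0.809). Those intervals leave out the spread between replicates, which was wider than counting error for Terc in 4 of 8 groups. Averaged over EU times the edgeR log2 fold change was −0.39 (SE 0.81, adjusted p = 0.793; 0.06 if the second Control 10 min library was dropped), so that the 95% interval reached from −1.98 to 1.19. Without the CKO 30 min libraries it was −0.79 (SE 0.80, edgeR adjusted p = 0.584). At the single EU times it ran from −1.86 (SE 1.97) at 10 min, through −0.61 (SE 1.49) and 0.79 (SE 1.46), to −0.43 (SE 1.44) at 60 min, with edgeR adjusted p of 0.638 or more. The test of genotype by EU time gave an edgeR adjusted p of 0.899.

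Replicate libraries disagreed about Terc more than counting error allows in 4 of 8 groups. The widest gap was at Control 60 min, where 34 counts stood beside 5 from a similar depth (exact binomial p = 9.24e-07, adjusted 1.48e-05 over the 16 pairs). At CKO 30 min 22 counts stood beside 5 (exact binomial adjusted p = 0.0122). The order of group means was CKO 30 min at 2.16 ± 1.92 CPM (SD, n = 2), Control 30 min at 1.26 ± 0.756, Control 60 min at 0.752 ± 0.802, CKO 60 min at 0.558 ± 0.263, Control 20 min at 0.553 ± 0.466, CKO 20 min at 0.360 ± 0.0233, Control 10 min at 0.167 ± 0.236 and CKO 10 min at 0.0402 ± 0.0569. Neighbours in this order overlapped, except CKO 20 min and Control 10 min.

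Both genotypes had the fewest Terc counts after the shortest labelling. The 4 libraries at 10 min held 6 counts together (0.113 CPM), against 33 at 20 min (0.447), 63 at 30 min (1.53) and 62 at 60 min (0.606). The ratio of 60 to 10 min was 5.38 (exact interval 2.34 to 15.2, counting error only). It was 3.3 (1.34 to 9.74) without the first Control 60 min library, and 23.3 (4.02 to 933) without the second Control 10 min library, which leaves 1 count at 10 min. Within a genotype the edgeR log2 fold change from 10 to 60 min was 2.09 in Control (SE 1.58, adjusted p = 0.502) and 3.53 in CKO (SE 1.88, adjusted p = 0.249), neither past the threshold. Leaving out 1 library at a time moved the Control value between 0.14 (without the first Control 60 min library) and 6.66 (without the second Control 10 min library). It moved the CKO value between 2.68 (without the first CKO 10 min library) and 6.22 (without the second). Under ERCC scaling both were called, as were 66.5% and 53% of identifiers, with a rise of 5.30 in Control (SE 1.68, edgeR adjusted p = 0.00556) and of 5.46 in CKO (SE 1.88, edgeR adjusted p = 0.0131), beside the medians of 3.25 and 2.01 given above. Fitted values of so few counts depend on the prior count that edgeR adds. In ERCC-scaled CPM the slope of Terc on EU minutes was 1.83 per min in Control and 1.34 in CKO, a log2 ratio of −0.45 (exact permutation p = 0.880, Benjamini-Hochberg 1). Averaged over EU times the spike-in scaled log2 difference of Terc was 0.33 (exact permutation p = 0.594, Benjamini-Hochberg 0.765), and 0.28 without the 30 min libraries (exact permutation p = 0.694, Benjamini-Hochberg 0.71).

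The identifier whose log2 CPM followed Rn7sk most closely over the 12 libraries at 10, 20 and 60 min was ENSMUSG00000031709.15 (Pearson r = 0.90, as a description; 0.72 over all 16 libraries). For Terc it was ENSMUSG00000041037.8 (r = 0.87 over 12 libraries, 0.77 over 16). These points share library depth and scaling, and 6.36% and 4.41% of the identifiers compared had an r beyond 0.7 in either direction, so that a close match is not rare.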

How the data were processed

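The authors deposited raw counts for each gene identifier, without normalisation. The submitters' processing notes name CASAVA, Trimmomatic 0.38, HISAT2 2.1.0, HTSeq and the mm10 build. The RNA was captured by click chemistry, 0.01 µl of ERCC RNA was added per sample, and libraries were made with a stranded total RNA kit, per the labels' protocols. Mouse identifiers were tested with edgeR 4.0.16 in R 4.3.3 (TMM, default filter on low counts by group, robust quasi-likelihood fit, Benjamini-Hochberg threshold 0.05), with EU time and genotype as additive terms for the average and 8 group means otherwise. SEs come from the F statistic. Spike-in scaled tests were exact, two-sided permutations of genotype inside each EU time (of 1296 assignments, for which p = 0.00154 is the smallest they can give), with 0.5 counts added before log2, over identifiers with a mean of at least 10 CPM and the 2 genes. The edgeR fit was tested on simulated data. DESeq2 1.42.0, other scalings, filters and subsets of libraries were alternatives. The rule for named genes was the 4 genes and the identifier most correlated with each (mean log2 CPM of at least 3). Partner and marker lists could not be matched to identifiers. The genes and lists were chosen with earlier results of these data known. No replicate libraries were identical, and all 8 pairs differed beyond sampling noise (chi-square per degree of freedom 3.59 to 23.5).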

Additional observations from a re-analysis of the deposited data

Results flagged for a closer look

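The genotype difference of Rn7sk varied between EU times (edgeR test of genotype by EU time, adjusted p = 0.00352). The log2 fold changes were −0.46, 1.20, −1.22 and 0.60 at 10, 20, 30 and 60 min, and the adjusted p was 0.0549 without the 30 min libraries. Dropping 1 library at a time gave an adjusted p between 2.49e-05 and 0.0299. No group had enough libraries for a test of single libraries as outliers.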

How the results depend on the processing

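Rn7sk at 10 min changed sign only under ERCC scaling (0.85), as did its change from 10 to 60 min in Control (1.76) and CKO (1.55). Its average over EU times kept its sign and side of the threshold under the 9 alternatives other than leaving out single libraries. Its spike-in scaled level was 1.04 without the 30 min libraries. With each library left out in turn, the average was −0.13 to 0.22 for Rn7sk and −0.81 to 0.06 for Terc, the spike-in scaled level 0.26 to 0.62 and −0.09 to 0.76, and the log2 slope ratio −0.41 to 0.60 and −1.40 to 0.85. For Rn7sk at 10, 20, 30 and 60 min it was −0.76 to −0.25, 0.94 to 1.51, −1.61 to −0.85 and 0.38 to 0.72. For Terc it was −4.57 to 2.69, −1.28 to 0.67, −0.62 to 1.62 and −1.29 to 1.51. For 60 against 10 min it was −1.77 to −1.43 in Control and −0.80 to −0.29 in CKO for Rn7sk, and 0.14 to 6.66 and 2.68 to 6.22 for Terc. Terc gave no value under the stricter filter (1 CPM in 8 libraries). The causes were not tested.

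Replicate numbers did not pair the libraries (correlations of deviations −0.02 to 0.01 over 28 pairs of groups). With the replicate block, the average for Rn7sk was 0.04 and for Terc −0.41, the 30 min value of Rn7sk was −1.23 (edgeR adjusted p = 0.0136), and no call of these genes changed.

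Alternative settings covered different numbers of identifiers, so a moved count need not be a moved share. The main fit, ERCC scaling and the replicate block covered 27488, DESeq2 42989 and the stricter filter 15522. Fits without the CKO 30 min libraries covered 20647, and those without all 30 min libraries 20204. Fits of only the libraries compared covered 17039, 18189 and 18468 at 10, 20 and 60 min, and 17252 for CKO over labelling time. Counts of called identifiers moved by over 1.5 times as follows. At 10 min 3246 became 4895 (DESeq2), 11962 (ERCC scaling), 4942 (without the CKO 30 min libraries, added after seeing the data) or 1680 (only the libraries compared). At 20 min 264 became 827, 146, 489 or 2353 in the same order, and 403 with the replicate block. At 30 min 13339 became 6102 (stricter filter). At 60 min 723 became 1875, 12, 1271 or 1744 in the first order. For genotype by EU time 6238 became 10546 (ERCC), 4040 (stricter filter) or 1127 (without the 30 min libraries). From 10 to 60 min, 2774 in Control became 4320 (DESeq2), 18274 (ERCC) or 4295 (without the CKO 30 min libraries), and 4176 in CKO became 14556 (ERCC) or 2632 (only the libraries compared). Leaving out each library gave 1611 to 2920 on average over EU times against 3152, 2241 to 5131, 105 to 665, 6305 to 13018 and 184 to 1676 at the 4 EU times, 4055 to 8281 for genotype by EU time, and 1552 to 4410 and 2882 to 5767 for 60 against 10 min. Calls at 30 min were 8076 higher and 5263 lower, but 9546 and 3293 with library totals. At 60 min they were 492 and 231, but 370 and 368.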
